A study of Mus musculus with 168 samples.

Results

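The genes described here are the clustered mouse histone genes, taken as every row of the expression table whose symbol starts with Hist1h, Hist2h, Hist3h or Hist4h. There were 72 such rows among 39410. By the histone that each symbol names, 6 rows were for the linker histone H1, 20 for H2A, 20 for H2B, 13 for H3 and 13 for H4. Of the 72 rows, 61 were above 0 in at least 1 sample, and 35 reached an RPKM of 1 in at least 3 samples and entered the tests. RPKM give the reads of a gene relative to its length and to the depth of the library.

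Histones package DNA into chromatin, with H2A, H2B, H3 and H4 forming the core of the nucleosome and H1 binding the DNA between cores. Most mRNA of the clustered genes is made while a cell copies its DNA and ends without a poly(A) tail, at a short stem-loop bound by the protein SLBP and cut with the help of the U7 small nuclear ribonucleoprotein (snRNP). Some clustered genes also give polyadenylated mRNA, with or without reading past the stem-loop, as is known in cells that no longer divide. The survival motor neuron protein SMN assembles snRNPs, U7 among them, and the question put to the data was how polyadenylated histone RNA varied by neuron population, age and SMN loss.

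The study compared delta7 mice, a model of spinal muscular atrophy (SMA) with the genotype Smn-/-/SMN2+/+/SMN∆7+/+, with littermate controls of the genotype Smn+/+/SMN2+/+/SMN∆7+/+, so that both genotypes carried the human SMN2 and SMN∆7 transgenes. Motor neurons of the ocular (oculomotor and trochlear), facial, vagus and hypoglossal nuclei and of the lumbar spinal cord, and red nucleus neurons, which are not motor neurons, were cut by laser at postnatal days 2, 5 and 10. There were 168 libraries from 34 mice, which gave 160 samples of a mouse and population. Control mice numbered 6 at day 2, 5 at day 5 and 4 at day 10, SMA mice numbered 9, 5 and 5 at those days, and each of the 36 groups of population, day and genotype held 3 to 7 mice. Each library came from a pool of about 150 cells, a part of the ocular libraries covered just 1 of the 2 ocular nuclei, and the lumbar control libraries of day 5 include reads of an earlier deposit. The libraries were made from polyadenylated RNA by Smart-seq2, which reads whole transcripts, and the table has 1 value for each gene. It therefore does not show where in a histone transcript the reads lay, or whether the RNA ended at the stem-loop or past it.

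Libraries held 0.342 to 16.3 M reads (median 5.89, M for mega), with 2 libraries under 2 M, a red nucleus control of day 10 (mouse 252) and a facial SMA library of day 2 (mouse 206). The clustered histone genes took 18 to 1805 reads per library (median 623.5). Smn1, the gene removed in SMA, was at 4.32 to 63.3 RPKM in the 72 control samples (median 22.8) and at 0 to 4.24 in the 88 SMA samples, 70 of which were at 0. The summed level of 4 motor neuron markers (Chat, Slc5a7, Isl1 and Prph) was 452 to 1970 RPKM in motor neuron samples and 4.15 to 101 in red nucleus samples, that of Pou4f1 and Slc17a6 was 245 to 726 in red nucleus samples and at most 177 elsewhere, and Hoxc10 was at 49.2 to 119 in lumbar samples and at most 1.55 elsewhere. Because each sample is a bulk pool, fewer cells of a type and less RNA per cell cannot be told apart in any value that follows.

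The stem-loop that ends a replication-type histone mRNA is shown for the genes that carry most of the results. Each sequence is the RNA-sense DNA of the longest GENCODE M21 transcript (GRCm38), 5′ to 3′, with the 16 bases of the stem-loop in capitals and 5 bases on either side:
Hist1h4d: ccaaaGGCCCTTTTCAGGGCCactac
Hist3h2ba: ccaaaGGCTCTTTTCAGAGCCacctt
Hist3h2a: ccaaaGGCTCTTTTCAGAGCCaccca
Hist1h1c: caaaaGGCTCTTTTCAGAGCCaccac
Hist1h4i: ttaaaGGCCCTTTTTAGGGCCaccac
Hist1h4h: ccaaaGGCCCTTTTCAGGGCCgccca
The histone stem-loop was found on the sense strand after the coding sequence of 46 of the 72 rows (63.9%), and 26 of these 46 shared the form seen in Hist3h2ba and Hist1h1c. Some rows without a match could not hold one, as their annotated transcripts stop at the coding sequence (in Hist1h2ai 390 of 393 bases are coding). Among the longest transcripts of 21857 other protein-coding genes, 0.512% held a match anywhere. A match is a description of the letters and not evidence that the RNA is cut there.

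Many annotated transcripts of these genes run on past the stem-loop. Of the 46 rows with a match, 24 had more than 100 annotated bases after it, and 7 of those 24 had a mean level of at least 1 RPKM. Of the other 22 rows, 1 had a mean of at least 1, Hist1h4h at 2.96, whose transcript ends 46 bases after its stem-loop. The median of the mean levels was 0.164 RPKM for the 24 longer models and 0.0219 for the 22 shorter ones. This is a description of gene models, since the annotation may itself rest on polyadenylated RNA. AATAAA or ATTAAA, the common polyadenylation signals, lay in the last 45 bases of 17 of the 72 rows' transcripts (23.6%), against 68.1% of other protein-coding genes, searched on the sense strand.

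Gene models of the leading members differ in how they end. Hist1h1c (chromosome 13, 23738808 to 23740367, plus strand, GRCm38) has 1560 annotated bases, 840 of them after the stem-loop, and AATAAA near its end. Hist3h2ba (chromosome 11, 58948920 to 58949533, plus strand) has 614 bases, 169 after the stem-loop, and AATAAA. Hist1h4i (chromosome 13, 22040636 to 22041362, minus strand) has 330 bases after the stem-loop and ATTAAA, and Hist1h4h (chromosome 13, 23531050 to 23531519, plus strand) has ATTAAA within its 46. Hist1h4d (chromosome 13, 23581598 to 23582735, plus strand) has 770 bases after the stem-loop and neither signal. The 2-exon transcript of Hist1h2bc (chromosome 13, 23684199 to 23692908, plus strand) has no stem-loop match, nor do those of Hist2h2be and Hist1h2aa. That of Hist1h2aa has 390 annotated bases, 387 of them coding, so it could not hold a stem-loop after the coding sequence. The steps in the deposited values give the length that the authors counted over, and it matched the annotation for Hist1h1c (1560 bases) but was shorter for Hist1h4d (393 against 1138) and Hist3h2a (1282 against 2146). Hist3h2a shares exon bases with Trim17 on its own strand and with Gm44313 on the other strand, Hist1h2aa with Gm44344 on the other strand, and Hist1h1e with Hist1h2be on its own strand. Near-identical copies are a further limit on single genes, as only 54.2% of the 50-base words of Hist1h4h and 69.9% of those of Hist1h2bc occur in no other GENCODE gene. Whether the counting used strand or split reads between copies is not given in the sources used here.

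A few genes carried nearly all of the histone signal. The 5 highest by mean RPKM over the 160 samples held 88% of the summed level and the 12 highest 96.6%. Hist1h4d, for H4, led with a mean of 48.0 RPKM (0.271 to 120). Hist1h2bc, for H2B, had a mean of 30.2 (0 to 138), and Hist3h2ba, another H2B gene, 21.5 (1.92 to 62.6). Hist3h2a, an H2A gene beside Hist3h2ba on chromosome 11, had a mean of 19.3 (2.89 to 45.5), and Hist1h1c, for linker histone H1, 11.9 (0 to 82.5). These 5 were above 0 in at least 157 of the 160 samples, so reads assigned to them were present in nearly every pool of neurons, in both genotypes. Such reads do not show how the RNA ended. The next 7 were 2 H4 genes, Hist1h4i at 4.19 and Hist1h4h at 2.96, followed by Hist1h1e at 2.16, Hist1h4c at 1.03, Hist2h2be at 0.963, Hist2h2ac at 0.88 and Hist1h2be at 0.691.

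The classes were very unequal. Summed mean levels were 57.0 RPKM for H4, 54.1 for H2B, 22 for H2A and 14.9 for H1, but 0.76 for the 13 H3 rows, the highest of which, Hist2h3c2, had a mean of 0.4. Of the 72 rows, 11 were at 0 in all samples and 26 were above 0 without reaching the level for testing. A row at 0 says only that no read was assigned to it.

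**Figure D1:**
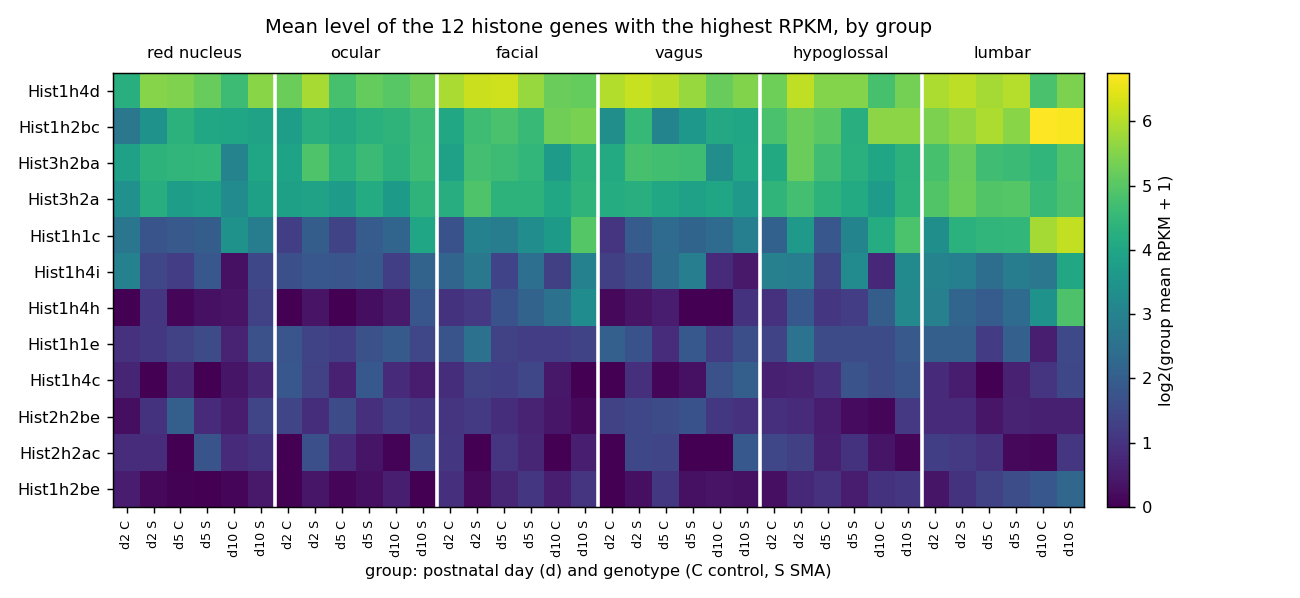
Mean level of the 12 histone genes with the highest mean RPKM (rows) in the 36 groups of population, postnatal day and genotype (columns, C for control and S for SMA), coloured by log2 of the group mean RPKM plus 1. The 4 upper rows have a mean of at least 5.40 RPKM in every group, the fifth row, Hist1h1c, goes down to 1.05 (vagus controls of day 2), and Hist1h1c, Hist1h2bc and Hist1h4h are brightest in lumbar neurons of day 10.

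In control mice the lumbar motor neurons held the most histone RNA. Their summed level over all 72 rows was 127 to 291 RPKM (median 228, n = 13 samples). Red nucleus neurons had 37.1 to 140 (median 82.9, n = 11) and ocular neurons 57.1 to 146 (median 80.1), which overlapped the lumbar range only at its lower end. The overlap was wider for facial (75.8 to 220, median 131), hypoglossal (64.2 to 173, median 133) and vagus neurons (71.8 to 190, median 92.8). Over the 6 populations, 11 of the 35 tested genes differed (limma F test with Benjamini-Hochberg adjustment over all 22270 genes tested, as for every adjusted p below), a share to be read against the 43.7% of all tested genes that did. Each population was also set against the mean of the other 5. In lumbar neurons 11 histone genes were higher and 0 lower, where 9.37% of all genes were higher.

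Hist1h1c in lumbar controls was at 4.77 to 67.3 RPKM (median 20.2), against 0 to 7.1 (median 1.87, n = 12) in ocular controls. The groups overlapped in their lower values. The next highest median of Hist1h1c was 7.37, in red nucleus controls (0 to 14.6). Lumbar neurons exceeded the mean of the other populations by 2.30 on the log2(RPKM + 1) scale for this gene (SE 0.224, adjusted p = 2.09e-16). Hist1h2bc ranged from 27.1 to 138 (median 61.8) in lumbar neurons and from 0.593 to 32.1 (median 11.3) in vagus neurons, with a lumbar excess of 1.97 (SE 0.244, adjusted p = 2.78e-11). Hypoglossal neurons had the next highest median of Hist1h2bc, 35.3 (11.5 to 57.1). Hist1h4h was above 0 in 13 of 13 lumbar, 8 of 13 facial and 8 of 12 hypoglossal samples. It was above 0 in 3 of 12 ocular, 3 of 11 red nucleus and 2 of 11 vagus samples. The lumbar excess of Hist1h4h was 1.99 (SE 0.257, adjusted p = 1.38e-10). Hist3h2a was at 19.5 to 41.8 (median 25.6) in lumbar neurons and 3.32 to 17.0 (median 10.9) in red nucleus neurons, 2 ranges that did not meet. Its ranges in facial (11.8 to 24.8), hypoglossal (3.81 to 25.6) and vagus neurons (9.66 to 19.6) did overlap the lumbar range. The other lumbar excesses were 1.07 for Hist1h4i, 0.70 for both Hist3h2ba and Hist1h2be, 0.53 for Hist1h1b, 0.52 for Hist1h2ai, 0.42 for Hist1h1d and 0.27 for Hist1h3a, an H3 gene. Hist1h4d, the gene with the highest level, was not among them.

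Other populations stood below the mean of the rest for some of these genes. In red nucleus neurons 5 genes were lower (Hist1h2bc by -1.27, Hist1h4h by -0.96, Hist3h2a by -0.80, Hist1h4d by -0.78 and Hist1h2be by -0.44 on the log2 scale) where 12.5% of all genes were. In ocular neurons 4 were lower, led by Hist1h1c at -1.32 (SE 0.23, adjusted p = 1.6e-06), and in vagus neurons 3 were, led by Hist1h2bc at -1.3 (SE 0.261, adjusted p = 2.17e-05), where 9.79% and 11.5% of all genes were lower. Hypoglossal neurons were higher in Hist1h2bc (0.87, SE 0.25) and in the H4 gene Hist1h4n (0.27), beside 7.25% of all genes. No histone gene set facial neurons apart, beside 9.4%. Glial RNA differed between populations as well. At day 2 the summed level of 4 oligodendrocyte markers (Mbp, Mog, Mag and Mobp) in lumbar controls was 5.67 to 33.8 RPKM. At day 10 it was 404 to 842 there and 249 to 327 in ocular controls. Its part in the lumbar excess was not tested.

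In controls from day 2 to day 10, Hist1h1c and Hist1h2bc rose and Hist1h4d and Hist1h4i fell, 4 of 35 tested genes, where 21.1% of all genes changed. Hist1h1c was at 0 to 11.2 RPKM (median 2.81, n = 24 samples) at day 2 and 1.51 to 67.3 (median 8.98, n = 24) at day 10, and the ranges overlapped widely because the populations differ. Within the fit it rose by 1.69 on the log2 scale (SE 0.23, adjusted p = 9.86e-10). Hist1h2bc rose by 1.26 (SE 0.251, adjusted p = 2.59e-05), from a median of 14.8 to 30.0. Hist1h4d fell by 0.664 (SE 0.25, adjusted p = 0.0431), from a median of 36.9 to 28.1, and Hist1h4i fell by 0.933 (SE 0.318, adjusted p = 0.0227), from a median of 2.9 to 0.703. From day 2 to day 5 none of the 35 passed in controls (3.51% of all genes did) or in SMA (7.58%). In both genotypes every day 10 library had a higher library number in its title than every day 2 library. Age and library number therefore cannot be told apart in the changes from day 2 to day 10.

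The rise of Hist1h1c was plain in single populations. In lumbar controls its mean went from 9.39 RPKM at day 2 to 20.7 at day 5 and 56.1 at day 10, a rise of 2.5 from day 2 to day 10 (SE 0.284, adjusted p = 2.95e-07), among 4 of 16 tested histone genes that changed there beside 12% of all genes. The others were Hist1h2bc (1.33, with means of 41.9, 59.7 and 107), Hist1h2be (1.47) and Hist1h4d (-1.21). Hist1h1c also rose in facial controls by 2.04 (SE 0.514, adjusted p = 0.0157, beside 5.36% of all genes) and in hypoglossal controls by 2.10 (SE 0.443, adjusted p = 0.0042, beside 5.11%). No histone gene passed with age in red nucleus, ocular or vagus controls, where 11.1%, 8.02% and 1.02% of all genes did.

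In SMA mice 9 of the 35 genes changed from day 2 to day 10, where 23.6% of all genes did. Hist1h1c rose by 1.67 (SE 0.202, adjusted p = 1.06e-11) and Hist1h4h by 1.49 (SE 0.232, adjusted p = 5.95e-08), followed by smaller rises of Hist2h3c2 (0.42), Hist1h2be (0.39) and Hist1h1d (0.30). Hist1h4d (-0.64), Hist3h2ba (-0.49), Hist1h2ab (-0.33) and Hist3h2a (-0.33) fell. Hist1h4h, which in controls did not pass, rose in lumbar SMA neurons by 3.16 (SE 0.513, adjusted p = 4.59e-05, beside 18.4% of all genes) and in facial SMA neurons by 2.28 (SE 0.618, adjusted p = 0.024, beside 6.73%). Hist1h1c rose in SMA neurons of lumbar cord (1.87, SE 0.236), facial nucleus (2.18, SE 0.48), ocular nuclei (2.06, SE 0.452, beside 6.66% of all genes) and hypoglossal nucleus (1.3, SE 0.379, beside 4.31%), and no histone gene passed in SMA red nucleus or vagus neurons, where 5.06% and 3.31% of all genes did. Whether the change from day 2 differed between genotypes was tested with an F test over both later days, and 0 of the 35 genes passed, beside 0.593% of all genes, with 5 at an unadjusted p under 0.05. The lowest adjusted p among them was 0.255, for Hist3h2ba.

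**Figure D2:**
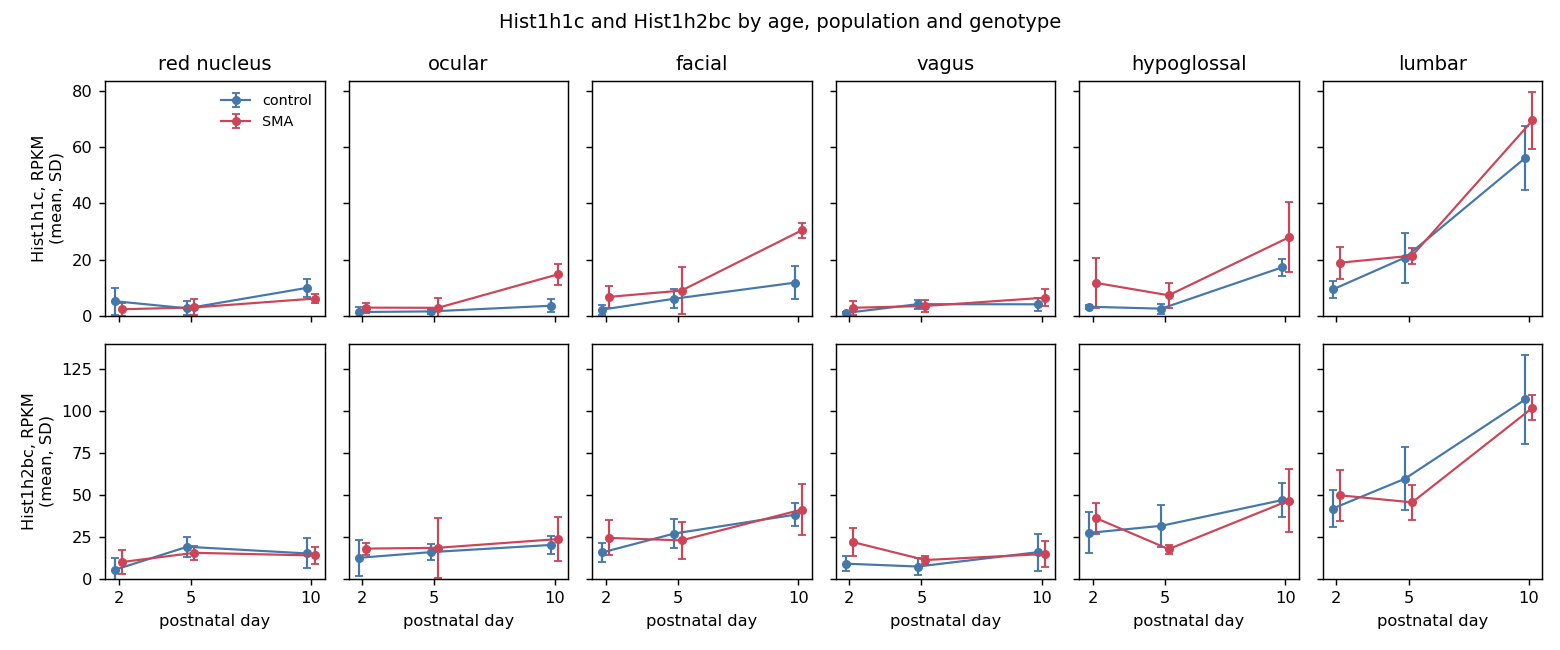
Group mean RPKM of Hist1h1c (upper row) and Hist1h2bc (lower row) at postnatal days 2, 5 and 10 in each population, with error bars of 1 SD over mice that are cut off at 0. The lumbar control means of Hist1h1c go from 9.39 to 56.1 and those of Hist1h2bc from 41.9 to 107.

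Markers of other cells were followed over the same days. All 4 oligodendrocyte markers rose from day 2 to day 10, with a median of 3.27 in controls and 2.91 in SMA on the log2 scale. In lumbar neurons their summed level went from 5.67 to 33.8 RPKM in day 2 controls to 404 to 842 in day 10 controls and 509 to 742 in day 10 SMA mice. Their part in the rise of Hist1h1c and Hist1h2bc was not tested. Of 23 tested genes of DNA replication and cell division, 2 rose and 4 fell with age in controls, where 21.1% of all genes changed. Mki67, a marker of dividing cells, was at 0 in 84 of the 160 samples and at most 1.21 RPKM. Levels varied over the list, from a median of 0 for Cdc6 and Chaf1a to 10.1 for Pcna (2.91 to 37.6) and 13.1 for Ccne1 (0.164 to 32.3).

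At day 2, 3 histone genes were higher in SMA than in control mice over all 6 populations and none were lower, 3 of 35 tested where 1.54% of all genes passed and 1.01% passed as higher. They were Hist3h2ba and Hist1h2bc, 2 of the 3 most abundant members, and Hist1h2aa, an H2A gene close to its detection limit. Hist3h2ba was at 3.01 to 39.4 RPKM (median 18.7) in the 24 control samples and at 7.77 to 62.6 (median 28.3) in the 36 SMA samples. The ranges overlapped, but the SMA mean was higher in 6 of 6 populations. The difference was 0.936 on the log2 scale (SE 0.193, adjusted p = 0.0015).

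By population the difference of Hist3h2ba was 1.40 in hypoglossal, 1.25 in ocular, 1.05 in vagus, 0.944 in facial, 0.723 in red nucleus and 0.35 in lumbar neurons, and none passed on its own (adjusted p = 0.193 to 0.949). In hypoglossal neurons the 6 SMA mice were at 28.9, 53.8, 42.1, 35.7, 27.5 and 28.3 RPKM and the 4 controls at 8.64, 33.4, 4.27 and 18.8. In ocular neurons the SMA mice were at 18.1, 27.7, 43.4, 24.6, 29.1 and 28.2 and the controls at 19.6, 4.39, 26.1 and 5.93. In lumbar neurons the SMA mice were at 22.9, 30.3, 16.5, 36.8, 62.6, 36.7 and 41.0 and the controls at 39.4, 19.8, 24.5 and 22. Every one of these lumbar controls was above 10 RPKM, while controls under 10 were found in hypoglossal and ocular neurons. In vagus neurons the SMA mice were at 29.1, 33.8, 22.9, 21.1, 32.9 and 21.5 and the 3 controls at 10.7, 4.58 and 34.1. In facial neurons the SMA mice were at 19.9, 27.7, 7.77, 43.6, 23.0, 18.7 and 37.6 and the 5 controls at 11.5, 3.33, 8.71, 24.0 and 20.9. In red nucleus neurons the SMA mice were at 30.8, 14.9, 16.7 and 16.5 and the controls at 18.6, 21.5, 11 and 3.01. The ranges of the genotypes overlapped in all 6 populations, and each population but lumbar had a control under 5 RPKM.

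Hist1h2bc was at 0 to 54.5 RPKM (median 14.8) in day 2 controls and at 0.254 to 76.1 (median 22.7) in SMA, with a higher SMA mean in 6 of 6 populations and a difference of 0.814 (SE 0.228, adjusted p = 0.039). Hist1h2aa was above 0 in 5 of 24 control and 25 of 36 SMA samples, at up to 0.852 and 1.75 RPKM, with a difference of 0.436 (SE 0.115, adjusted p = 0.0235). It had at most 4 reads in any library and 137 in all, so its values are near the limit of counting. Hist1h1c (0.709, SE 0.21, adjusted p = 0.0573), Hist3h2a (0.39, SE 0.12, adjusted p = 0.0702) and Hist1h4d (0.618, SE 0.228, adjusted p = 0.173) did not pass. Over the 35 genes, 28 had a difference above 0, where 58.9% of all genes did, and the median difference was 0.081 against 0.037 over all genes.

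The day 2 calls differed in how far they rested on single mice. Hist3h2ba passed whichever of the 15 day 2 mice was left out, with an adjusted p of 4.64e-04 to 0.0307. Hist1h2bc did not pass without SMA mouse 16, 206, 207 or 209 or without control mouse 26, 240 or 244, with an adjusted p of up to 0.25. Hist1h2aa did not pass without mouse 26, 206 or 244. Hist1h2bc also lost its call with each library as its own sample (adjusted p = 0.0519) and in a fit of day 2 samples alone (0.0984), and Hist1h2aa after quantile normalization (0.0841). At day 2 the library numbers in the titles also separated most controls from SMA, with 12 control samples (3 mice) numbered below and 10 (2 mice) above all SMA libraries. Against the lower-numbered controls alone 1 histone gene passed, and against the higher-numbered ones 4, a comparison chosen after seeing the data. Hist1h2aa passed in neither (adjusted p = 0.126 and 0.286). Hist3h2ba had medians of 11.3 and 19.8 RPKM in these 2 sets of controls, both below the 28.3 of SMA. The lower-numbered controls held no lumbar sample, so their comparison covered 5 populations and these medians are not of like samples. The other 2 control samples, both lumbar and numbered among the SMA libraries, had Hist3h2ba at 19.8 and 39.4 RPKM (median 29.6). Lumbar SMA samples of day 2 had 16.5 to 62.6 (median 36.7). Hist1h1c was at 10.8 and 11.2 in these 2 controls and at 11.8 to 26.5 in lumbar SMA samples. The mean of Hist1h2bc in these 2 controls was 48.7, against 28.2 in SMA samples of all populations. Control levels of Hist1h2bc were highest in lumbar neurons, so these 2 means are not of like samples. What the numbers stand for is not given in the sources used here.

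**Figure D3:**
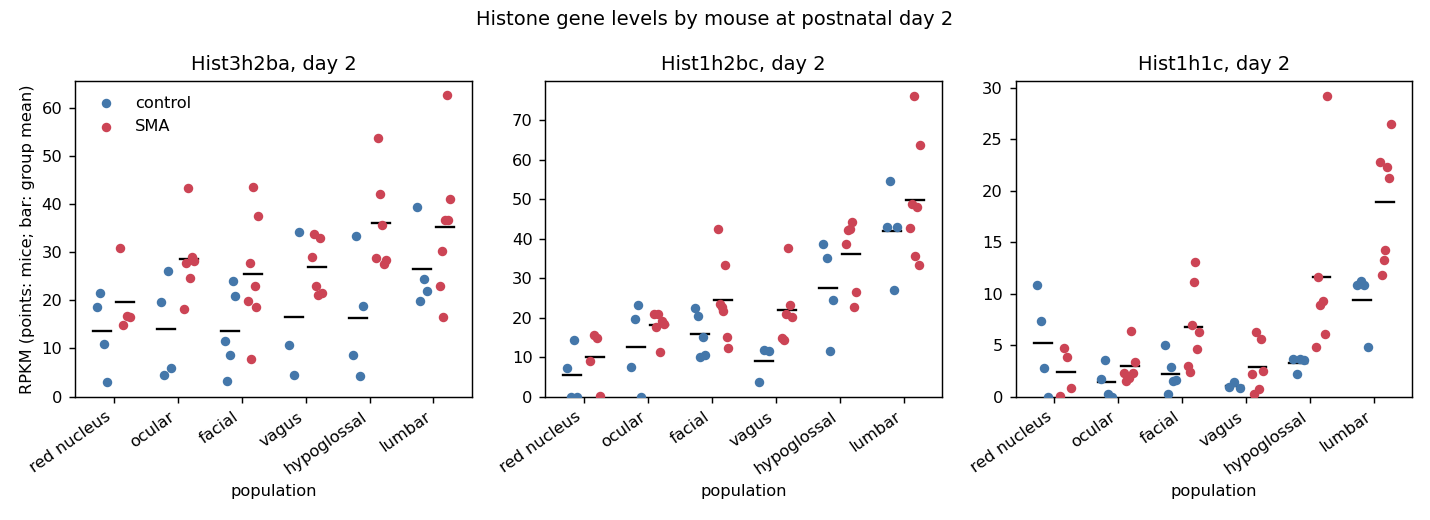
RPKM of Hist3h2ba, Hist1h2bc and Hist1h1c at day 2 by population, with each point a mouse, coloured by genotype, and each bar a group mean. The SMA means of Hist3h2ba and Hist1h2bc are above the control means in 6 of 6 populations, with overlapping points in most.

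At day 5 no histone gene passed between genotypes. The count was 0 of 35 in limma, where 0.117% of all genes passed, and 2 members had an unadjusted p under 0.05. Hist3h2ba was at 3.54 to 47.4 RPKM (median 21.9) in controls and 10.7 to 34.4 (median 20.9) in SMA (24 samples each), a difference of 0.0132 with an approximate 95% interval of -0.404 to 0.43. For Hist1h2bc the difference was -0.163 (interval -0.657 to 0.331) and for Hist1h1c 0.264 (interval -0.19 to 0.719). Hist1h4i was at 0 to 8.67 (median 2.09) in controls and 0 to 16.1 (median 4.35) in SMA, with a difference of 0.752 (SE 0.32, adjusted p = 0.462). The summed histone level was higher on average in SMA in 1 of 6 populations at day 5, against 6 of 6 at day 2 and 6 of 6 at day 10. Libraries of day 5 were deeper, with medians of 8.36 M reads in controls and 8.04 in SMA.

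At day 10, 2 H4 genes were higher in SMA over all populations, Hist1h4h and Hist1h4i, 2 of 35 tested where 1.78% of all genes passed and 1.53% passed as higher. Hist1h4h was at 0 to 14.2 RPKM (median 0.659) in the 24 control samples and at 0 to 37.4 (median 4.04) in the 28 SMA samples. The group mean was higher in SMA in 6 of 6 populations, and the difference was 0.97 on the log2 scale (SE 0.256, adjusted p = 0.0199). Hist1h4i was at 0 to 13 (median 0.703) in controls and 0 to 32.1 (median 2.56) in SMA, higher on average in 5 of 6 populations, with a difference of 1.16 (SE 0.309, adjusted p = 0.0219). Both are low, with at most 66 reads of Hist1h4h and 80 of Hist1h4i in a library.

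The largest levels of Hist1h4h were in lumbar neurons. There the 5 SMA mice of day 10 were at 31.3, 24.8, 37.4, 20.8 and 26.5 RPKM and the 4 controls at 7.36, 14.2, 8.1 and 9.75, and the groups did not overlap. Within the lumbar fit the difference was 1.44 (SE 0.588, adjusted p = 0.358), and at day 2 the lumbar means ran the other way, at 3.62 in SMA and 6.66 in controls. In hypoglossal neurons Hist1h4h was at 6.71, 7.71, 15.6, 7.8 and 2.37 in SMA and 3.38, 4.95, 2.75 and 0.893 in controls, which overlapped. In vagus neurons it was at 0 in all 4 controls and in 4 of 5 SMA mice.

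Hist1h4i separated the genotypes in other places. In hypoglossal neurons of day 10 the SMA mice were at 1.75, 3.07, 21, 4.61 and 11.5 RPKM and the controls at 0, 1.25, 0.61 and 0.99. In red nucleus neurons the SMA mice were at 1.81, 2.22, 1.15 and 1.88 and the controls at 0, 0, 0.911 and 0. Neither pair of groups overlapped, though the control at 0 from mouse 252 comes from the library of 0.34 M reads. In lumbar neurons they overlapped, at 7.99, 2.41, 18.7, 32.1 and 15.9 in SMA and 0.344, 2.58, 13 and 5.59 in controls.

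**Figure D4:**
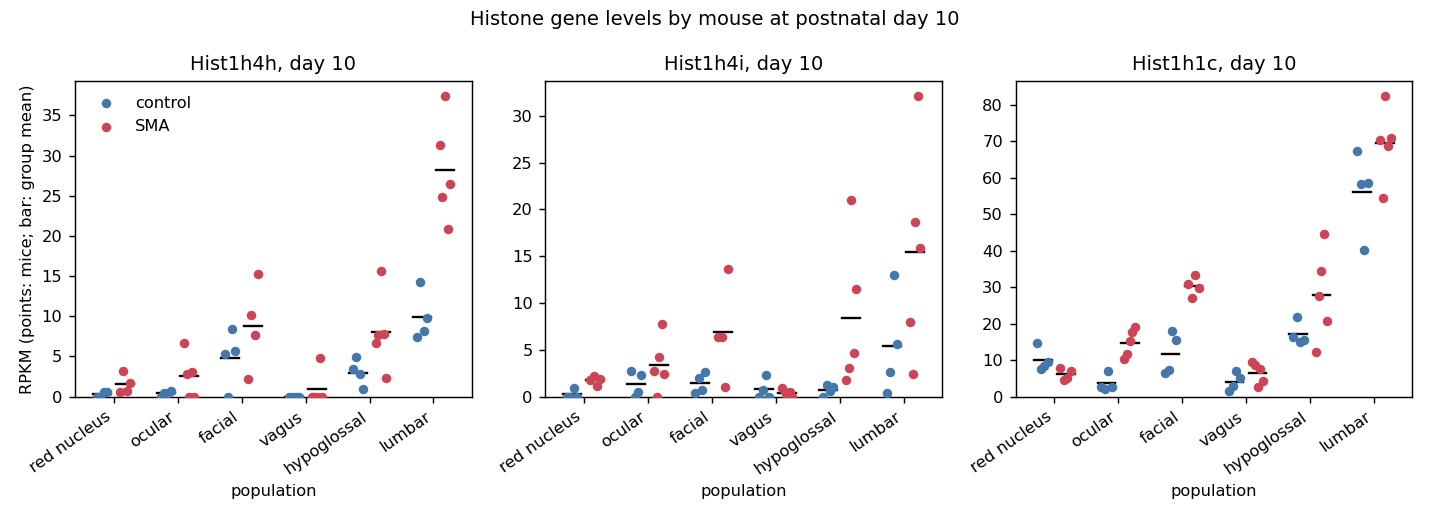
RPKM of Hist1h4h, Hist1h4i and Hist1h1c at day 10 by population, with each point a mouse, coloured by genotype, and each bar a group mean. Hist1h4h in lumbar neurons and Hist1h1c in ocular and facial neurons show SMA points that all lie above the control points.

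Both day 10 calls rested on the mice included. Hist1h4h did not pass without mouse 199, 247, 250 or 252 (adjusted p 0.0662 to 0.0839), and Hist1h4i did not pass without mouse 247, 250, 252 or 258 (0.0722 to 0.149). Hist1h4h also did not pass with a pseudocount of 0.1 in place of 1 (1.55, adjusted p = 0.18). Members that did not pass at day 10 included Hist1h1c (0.687, adjusted p = 0.102), Hist3h2ba (0.619, adjusted p = 0.116), Hist3h2a (0.362, adjusted p = 0.158), Hist2h2ac (0.656, adjusted p = 0.17) and Hist1h4d (0.646, adjusted p = 0.203). Hist1h2bc, which passed at day 2, differed by -0.0337 at day 10 (interval -0.51 to 0.442). Of the 35 genes 30 had a difference above 0, where 62.8% of all genes did, and the median was 0.12 against 0.051 over all genes.

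**Figure D5:**
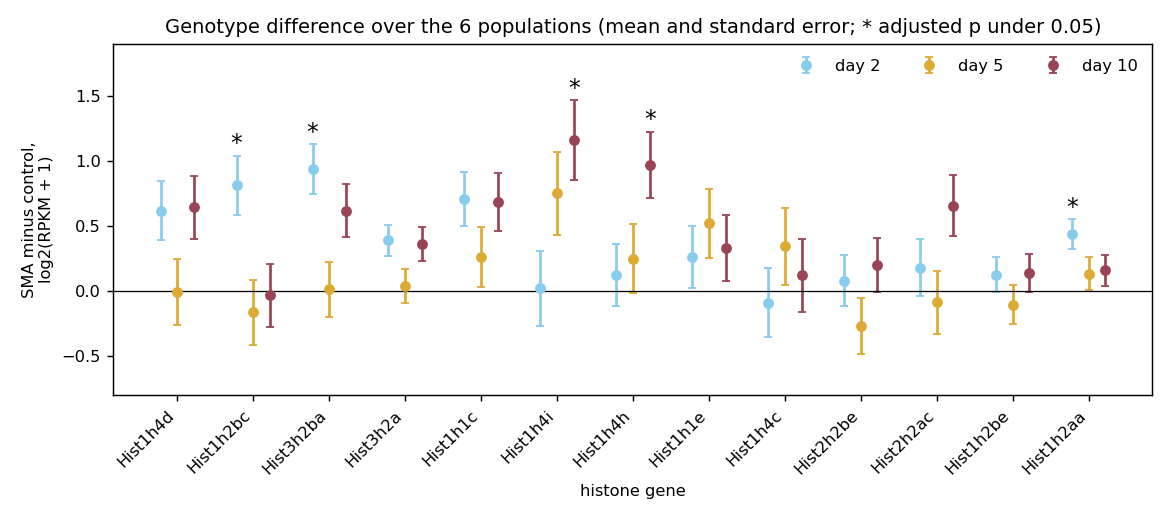
Difference between SMA and control over all populations at days 2, 5 and 10 for the 12 leading histone genes and Hist1h2aa, as log2 fold change on the log2(RPKM + 1) scale with its standard error and a star where the adjusted p is under 0.05. Hist3h2ba is at 0.936 at day 2 and 0.0132 at day 5, and Hist1h4h is at 0.97 at day 10.

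In single populations no histone gene passed. Over the 18 contrasts of population and day, 11 to 19 histone genes could be tested in each, 273 tests in all. Of these 0 passed in limma and 37 had an unadjusted p under 0.05, 35 of them higher in SMA. The share of all genes at that unadjusted p, and their direction, was not counted, for these tests or for those over all populations. The counts of 37 and 35 therefore have no reference and are not a result about histone genes. Of all genes 48.7% (lumbar, day 2) to 63% (red nucleus, day 10) had a difference above 0 in these contrasts. Most mice gave several populations, so the 273 tests are not independent. Between 0.00599% and 0.775% of all genes passed in these contrasts (median 0.0308%), and 0.129% of all tests did over the 18, so few genes of any kind did. Of the members whose groups were compared mouse by mouse, Hist1h1c had the most contrasts with every SMA mouse above every control, 4 of 18. How many genes of any kind separate like this was not counted, here or for Hist1h4h and Hist1h4i above. At day 10 Hist1h1c was at 10.2, 11.7, 15.3, 17.6 and 19.0 RPKM in ocular SMA neurons and 2.59, 2.04, 7.1 and 2.75 in controls, a difference of 1.85 (SE 0.5, adjusted p = 0.16). Every ocular SMA value lay above every control. In facial neurons of day 10 it was at 31.0, 27.1, 33.4 and 29.9 in SMA and 6.47, 7.25, 18.1 and 15.4 in controls. At day 2 it was at 4.83, 11.6, 8.88, 9.33, 6.06 and 29.2 in hypoglossal SMA neurons and 3.61, 2.24, 3.61 and 3.57 in controls, a difference of 1.36 (SE 0.404, adjusted p = 0.225). In lumbar neurons of day 2 it was at 22.8, 11.8, 13.3, 14.2, 22.3, 21.2 and 26.5 in SMA and 10.8, 11.2, 10.8 and 4.77 in controls, a difference of 0.945 (SE 0.252, adjusted p = 0.521). The means went the other way in red nucleus neurons at day 10, at 6.17 in SMA and 10.0 in controls. When a fit was limited to the 2 groups of its contrast, Hist1h1c in ocular neurons (adjusted p = 0.0293) and Hist1h4h in lumbar neurons (adjusted p = 0.0173) passed at day 10.

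The result for Hist1h1c also depended on which populations entered. With the 5 motor neuron populations alone, an alternative chosen after seeing the data, its difference was 1.01 on the log2 scale at day 2 (adjusted p = 0.00135) and 0.944 at day 10 (adjusted p = 0.00444), while Hist1h2bc (0.0597) and Hist1h2aa (0.0646) no longer passed at day 2. Whether the genotype difference itself varied among the 6 populations was tested for each day, likewise after seeing the data. None of the 35 genes passed at day 2 or day 5, where 0.494% and 0.211% of all genes did, and Hist1h1c at day 10 had an adjusted p of 0.454. At day 10, 1 gene passed beside 0.624% of all genes, the linker histone gene Hist1h1d (adjusted p = 0.00775). In facial neurons it was at 0.809, 0.718, 2.92 and 4.17 RPKM in SMA and 0, 0.503, 0.284 and 0.0282 in controls, and the facial difference exceeded the mean of the others by 1.14 (SE 0.275, adjusted p = 0.0318). In red nucleus neurons all 4 SMA mice were at 0 and the controls at 0, 0, 0.384 and 1.19.

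Genes that act on histone mRNA ends were compared in the same fits. Of 24 tested genes of histone 3′ end processing, 1 was lower at day 2 and 1 at day 5, and 0 passed at day 10. Of all genes 1.54%, 0.117% and 1.78% passed at those days. The gene lower at days 2 and 5 was Cstf2, which codes for a cleavage factor subunit, at -0.51 (adjusted p = 0.0172) and -0.66 (adjusted p = 0.0212). Slbp, for the stem-loop binding protein, differed by -0.55 at day 2 (adjusted p = 0.179) and by 0.58 at day 10 (adjusted p = 0.206). The change in its genotype difference from day 2 to day 10 was 1.13 (SE 0.299, adjusted p = 0.0399), and it was the only one of the 24 to pass in that contrast, where 0.669% of all genes and 0 of the 35 histone genes did. In the F test over both later days it did not pass (adjusted p = 0.118), nor did the others of the 24. Lsm10 and Lsm11, for the proteins that set the U7 ring apart from spliceosomal rings, did not pass at any day and lay between -0.32 and 0.15. With age in controls Slbp (-0.97), Lsm10 (-0.69), Eri1 (-0.50), Npat (-0.42) and Snrpe (-0.37) fell and Ncbp1 (0.38) rose, 6 of 24 beside 21.1% of all genes. In SMA mice Cpsf1 rose (0.38, adjusted p = 0.00477), 1 of 24 beside 23.6% of all genes.

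Histone genes outside the clusters give polyadenylated mRNA as a rule and served as a second reference. Of 11 tested, H1fx, for a linker histone, was higher in SMA at day 2 (0.508, adjusted p = 0.00428), none passed at day 5, and H2afj was higher at day 10 (0.501, adjusted p = 0.0465). Of all genes 1.54%, 0.117% and 1.78% passed at those days. With age in controls 3 of the 11 rose (H1f0, H1fx and H2afj) and 4 fell (H2afy2, H2afz, H3f3a and H3f3b), beside 21.1% of all genes. Of the 23 genes of DNA replication and division, 0 passed between genotypes at any day, and their summed level was 36.4 to 109 RPKM in control and 42.9 to 103 in SMA samples at day 2, and 33.9 to 94.2 and 27.8 to 91.0 at day 10.

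Markers of other cells were compared in the same samples. No oligodendrocyte, precursor, microglia or vessel marker passed between genotypes over all populations (4 oligodendrocyte genes and 5 of each other list). Of 5 astrocyte markers Gfap was higher in SMA at day 5 (1.12, adjusted p = 0.0114) and day 10 (0.941, adjusted p = 0.00514). Of all genes 0.117% and 1.78% passed at those days. The other astrocyte markers did not pass, and differed by -0.427 to -0.127 at day 5 and by 0.0359 to 0.439 at day 10. In facial neurons of day 10, where Hist1h1c and Hist1h1d were high in SMA, the summed astrocyte markers were at 25.2 to 35.7 RPKM in controls and 39.2 to 68.3 in SMA. Their part in the histone differences was not tested.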

How the data were processed

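RNA of laser-cut neurons was measured in 168 libraries of polyadenylated RNA. The authors deposited a table of RPKM for 39410 rows. Per the submitters' processing notes STAR 2.4.1c was used with the builds mm10 and hg19, and the counting program and gene models are not given in the sources used here. Libraries of the same mouse and population were averaged. RPKM were tested as log2(RPKM + 1), which understates changes of low genes, with limma 3.58.1 (lmFit, eBayes with trend) in R 4.3.3. A gene was tested when its RPKM was at least 1 in 3 samples, the size of the smallest group. P-values were two-sided and adjusted by Benjamini and Hochberg over all 22270 genes of the fit over all populations, or all genes of a population's fit, with a threshold of 0.05. Mouse numbers mark 1 animal across populations, so the mouse was a random block in the fit over all populations (estimated correlation 0.0366). Each population's fit held its 6 groups.

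Depth and reads per gene were recovered from the equal steps of low values (tolerance 0.01 reads). The read counts are not counts of molecules, because the libraries carry no molecular identifiers. The approximate 95% intervals come from the SE of the fit, which rests on the spread between samples. The fits were tested on simulated data. Positions, transcripts and stem-loops are from GENCODE M21 (GRCm38). The members and all gene lists were chosen with earlier results of these data known. Of the marker lists, 1 gene is not reported here. Genes named were the 12 highest members, those past the threshold between genotypes, with age or between populations, and list genes past the threshold; others were named after their values were seen. Alternatives were a pseudocount of 0.1, no filter, quantile normalization, separate libraries, no block, fewer groups and each mouse left out. Motor neurons alone, depth over 2 M reads, control subsets by library number and genotype by population tests were added after seeing the data.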

Additional observations from a re-analysis of the deposited data

Results flagged for a closer look

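Single mice far from the others of their group were looked for in the summed histone level and 7 genes. Normally distributed values would mark about 1 group in 20, which need not hold for RPKM with many zeros. A group with just 1 mouse above 0 is always marked. In 18 of 252 groups of 4 to 7 mice (7.14%) single mice were marked. For Hist1h1c these were 29.2 RPKM in hypoglossal SMA neurons of day 2 (mouse 211, nearest 11.6), 2.24 in hypoglossal controls of day 2 (mouse 28, nearest 3.57), 4.77 in lumbar controls of day 2 (mouse 244, nearest 10.8) and 7.1 in ocular controls of day 10 (mouse 253, nearest 2.75). For Hist1h2bc it was 11.2 in ocular SMA neurons of day 2 (mouse 207, nearest 17.7). For Hist3h2ba they were 29.2 in hypoglossal controls of day 10 (mouse 252, nearest 11.1) and 30.8 in red nucleus SMA neurons of day 2 (mouse 206, nearest 16.7).

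For Hist3h2a they were 38.4 in lumbar SMA neurons of day 5 (mouse 76, nearest 29.7), 44.0 in lumbar SMA neurons of day 10 (mouse 249, nearest 25.9) and 18.8 in red nucleus SMA neurons of day 10 (mouse 249, nearest 11.7). For Hist1h4h they were 1.7 in ocular SMA neurons of day 2 (mouse 211, nearest 0), 3.75 in red nucleus SMA neurons of day 2 (mouse 207, nearest 0.633), 1.77 in vagus controls of day 5 (mouse 29, nearest 0) and 4.86 in vagus SMA neurons of day 10 (mouse 250, nearest 0). For Hist1h4i they were 0.258 in facial controls of day 5 (mouse 34, nearest 1.94), 3.87 in ocular controls of day 2 (mouse 28, nearest 1.7), 25.3 in red nucleus controls of day 2 (mouse 244, nearest 1.87) and 0.911 in red nucleus controls of day 10 (mouse 253, nearest 0).

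The genotype difference of Hist1h1d varied among populations at day 10 (limma F test, adjusted p = 0.00775), a test added after seeing the data.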

How the results depend on the processing

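At day 2, 3 histone genes passed, and 5 did with no replicate block. With controls of lower library numbers alone, which cover 5 populations without lumbar, 1 passed. Leaving out each mouse gave 1 to 5 at day 2, 0 for every mouse at day 5, 0 to 5 at day 10, 2 to 5 with age in controls, 7 to 11 between populations, 0 for the change with day and 0 to 1 over the 18 contrasts. The count was 1 at day 2 without mouse 26, 206 or 244, and at day 10 it was 0 without mouse 247, 250 or 252 and 5 without mouse 249. At day 10, where 2 passed, 1 did with a pseudocount of 0.1 and 4 did in motor neurons alone. Between populations, where 11 passed, 7 did in motor neurons alone. Over the 18 contrasts, where 0 passed, 1 did with each library as its own sample and 2 with only the groups compared. The replicate block changed no other count by over 1.5 times, and the cause of these changes was not tested.

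Signs changed only among differences that did not pass. Hist1h4i at day 2 (0.0208) was -0.0587 after quantile normalization, -0.0169 without samples under 2 M reads and -0.267 against controls of higher library numbers, where Hist1h4h was -0.109. At day 5 Hist3h2ba was -0.023 after quantile normalization, and Hist1h4d was 0.0773 with separate libraries and 0.00943 in motor neurons alone. Hist1h2bc at day 10 was 0.0189 without samples under 2 M reads. Leaving out mice gave -0.103 to 0.169 for Hist1h4i and -0.00613 to 0.221 for Hist1h4h at day 2, -0.194 to 0.191 for Hist1h4d, -0.0211 to 0.0893 for Hist3h2a and -0.129 to 0.162 for Hist3h2ba at day 5, and -0.153 to 0.0996 for Hist1h2bc at day 10. Hist3h2ba at day 2 passed under all 10 alternatives run (adjusted p 3.01e-04 to 0.018). Low reads limit Hist1h2aa, Hist1h4h and Hist1h4i.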
